A study of Homo sapiens with 14 samples.

Results

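Chromosome 7 carried 108159 of the 1971391 ATAC-seq peaks (5.49%) in 14 deposited peak lists from human muscle-lineage cells, against 1821420 peaks on the 21 other autosomes. Its peaks were taken by chromosome name alone. The chromosome itself was picked because its regions were lost more often with PAX3-FOXO1 in LHCN, so every value from that contrast below is a description and carries no test. The question was whether the deficit runs evenly along the chromosome, as a difference in copy number would in signal. Peaks that passed a limit were counted here, so the same factor at every site need not give an even deficit of peaks.

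LHCN is an immortalised human myoblast line, here carrying an empty vector or overexpressing PAX3-FOXO1 for 72 h. RH30 is an alveolar rhabdomyosarcoma line whose own genome holds the PAX3-FOXO1 fusion, so all RH30 groups share it. RH30 was treated for 72 h with 200 nM QC6352 or with 0.1% DMSO as its control, or received by transduction a hairpin called shCtrl or 1 of 2 hairpins against KDM4B, shKDM4B-813 and shKDM4B-814, also for 72 h. Each of the 7 groups has 2 libraries of 100000 cells. Each setting is a single cell line, and the fusion in LHCN is an overexpressed transgene. The labels do not say whether the 2 libraries came from separate cultures. A p-value here therefore sets a difference between groups only against the spread of libraries within groups, and that spread may be technical.

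ATAC-seq marks accessible DNA through the insertion of sequencing adapters by the Tn5 transposase. A peak is a place where insertions pile up over the background. PAX3-FOXO1 joins the DNA-binding domains of the developmental factor PAX3 to the activation domain of FOXO1 and drives alveolar rhabdomyosarcoma. KDM4B is a histone demethylase, and QC6352 inhibits the KDM4 family. Since insertions scale with the amount of DNA, an extra copy of a chromosome raises the signal at all of its sites by the same factor, whereas a transcription factor acts at separate sites. In these bulk libraries, fewer cells with a site open and less opening per cell cannot be told apart.

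The names of the peaks inside 6 of the 14 lists go against the labels. The lists labelled shCtrl hold peaks named for sh813, those labelled shKDM4B-813 hold peaks named for sh814, and those labelled shKDM4B-814 hold peaks named for the control hairpin. The other 8 lists, LHCN and the compound experiment, match their labels. The hairpin libraries are therefore called by their label throughout, and their results are given for the grouping in the peak names as well. Deposited lists held 93488 to 176899 peaks, so lists were cut to equal length by keeping the peaks with the highest −log10 q. Replicates had between 0.0603% and 0.377% of chromosome 7 peaks at identical coordinates, so no pair was a list deposited again.

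Chromosome 7 held a smaller share of the accessible sites with PAX3-FOXO1 than with vector in LHCN. With the 4 LHCN lists cut to 170390 peaks, it held 11990 and 11954 peaks in the vector libraries and 10629 and 10321 with PAX3-FOXO1. That was 7.20% and 7.18% of autosomal peaks with vector (7.19% ± 0.015, SD, n = 2) and 6.38% and 6.21% with PAX3-FOXO1 (6.30% ± 0.12, SD, n = 2). The groups did not overlap, and the difference was −0.899 percentage points. Shares that did not overlap and were lower with PAX3-FOXO1 were seen on 27.3% of the 22 autosomes, and higher ones on 59.1%.

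In the deposited lists of both vector libraries chromosome 7 ranked 3 of 22 by number of peaks. It ranked 4 and 6 with PAX3-FOXO1. In the RH30 lists it ranked 6 to 9. The share with PAX3-FOXO1 divided by that with vector was 0.875, the lowest of the 22 autosomes. Chromosome 22 lay next at 0.880 and chromosome 19 at 0.886, while the median of the other autosomes was 1.02 and their highest 1.05. By this ratio chromosome 7 thus stood at the end of a short list of low chromosomes rather than alone.

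**Figure D1:**
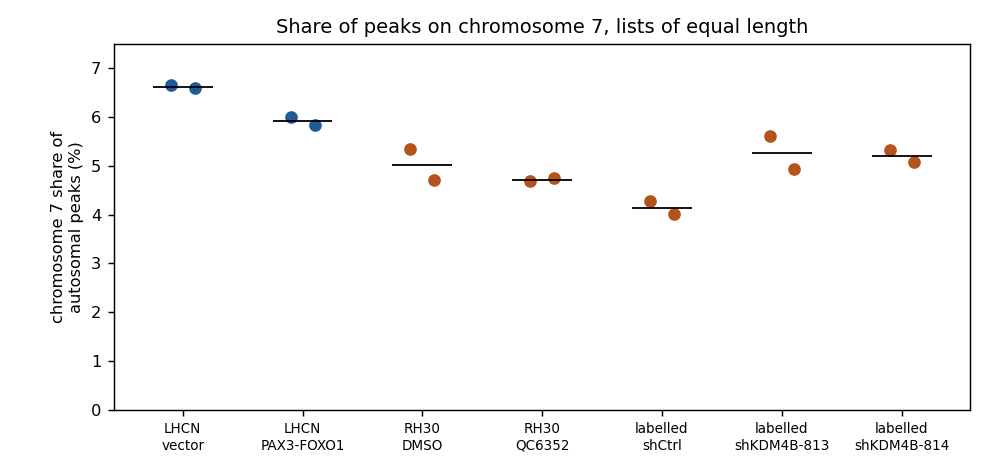
Share of autosomal peaks on chromosome 7 (%, vertical axis) in each of the 14 libraries (points, 2 per group, LHCN in blue and RH30 in orange), with all lists cut to 93488 peaks; black lines are group means. The vector libraries lie highest at 6.66% and 6.59%, the PAX3-FOXO1 libraries at 6.003% and 5.83%, and all RH30 libraries between 4.00% and 5.62%.

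The plot of shares by library sets the LHCN lists beside RH30 at equal length. The vector mean was 6.63% ± 0.051 and the PAX3-FOXO1 mean 5.92% ± 0.12 (SD, n = 2 each). In RH30 the means were 5.02% ± 0.45 with DMSO, 4.72% ± 0.047 with QC6352, 4.14% ± 0.19 in the libraries labelled shCtrl, 5.27% ± 0.49 in those labelled shKDM4B-813 and 5.20% ± 0.17 in those labelled shKDM4B-814 (SD, n = 2 each). The PAX3-FOXO1 libraries of LHCN lay between the vector libraries and every RH30 library.

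Losses and gains were then counted region by region. A region of the merged lists was called lost when both vector libraries and neither PAX3-FOXO1 library had a peak there, and gained in the reverse case. Chromosome 7 held 15974 regions, or 100.5 per Mb, the highest density of the 22 autosomes. Of these, 1782 were lost, which is 11.2% (95% Wilson interval over regions 10.7% to 11.7%), where 8.42% of all autosomal regions were called lost. The 808 gained regions made up 5.06% (4.73% to 5.41%), where 8.07% of all autosomal regions were called gained. These calls are what the chromosome was chosen by, so nothing is read from their distance to the background.

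Among the 22 autosomes chromosome 7 ranked 1 by share lost and 20 by share gained. Chromosome 21 had 10.9% lost and 5.24% gained, chromosome 22 had 10.3% and 4.57%, chromosome 17 had 9.58% and 5.87%, and chromosome 19 had 8.98% and 3.84%. In all, 8 other autosomes had more lost than gained regions. Lost regions on chromosome 7 numbered 2.21 for each gained region, against 2.34 on chromosome 19 and 2.26 on chromosome 22.

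The deficit ran along nearly the whole chromosome. It was cut into 16 bins of 10 Mb, numbered from the short-arm end. The share of autosomal peaks was lower in both PAX3-FOXO1 libraries than in both vector libraries in 15 of the 16 bins, where 38.4% of all autosomal bins were lower without overlap and 39.8% were higher. The ratio of the PAX3-FOXO1 mean to the vector mean ran from 0.782 in bin 10 (chr7:90000001-100000000) to 1.03 in bin 16 (from chr7:150000001), with a median of 0.874. The other 273 autosomal bins had a median of 1.01 and quartiles of 0.935 and 1.09, and 14 chromosome 7 bins lay below that lower quartile.

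**Figure D2:**
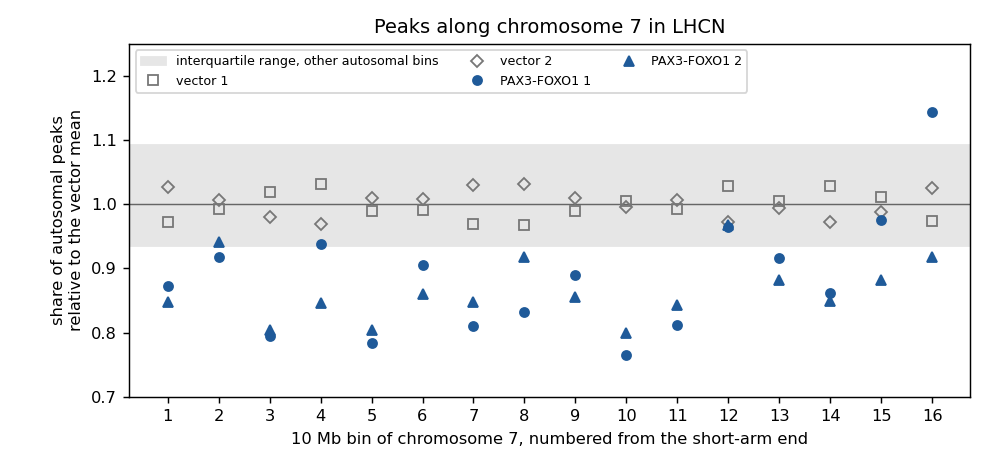
Share of autosomal peaks in each 10 Mb bin of chromosome 7 (horizontal axis, bins 1 to 16 from the short-arm end) relative to the vector mean of that bin (vertical axis, no unit, not starting at 0), for the vector libraries (open grey) and the PAX3-FOXO1 libraries (filled blue), each list cut to 170390 peaks. The grey band spans the quartiles 0.935 to 1.09 of the PAX3-FOXO1 to vector ratio in the other autosomal bins, and the PAX3-FOXO1 libraries lie below the vector libraries in every bin but bin 16.

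Bins 3, 5 and 10 had the deepest deficits. Bin 10 held 890 and 882 peaks with vector and 679 and 707 with PAX3-FOXO1. Bin 5 (chr7:40000001-50000000) held 866 and 883 against 686 and 702, a ratio of 0.794. Bin 3 (chr7:20000001-30000000) held 1001 and 963 against 781 and 788, a ratio of 0.799. In these bins the replicates lay within a few percent of each other and the groups were far apart.

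Bins 12 and 16 were close to even. Bin 12 (chr7:110000001-120000000) held 733 and 693 peaks with vector and 688 and 689 with PAX3-FOXO1, a ratio of 0.966 with only a narrow gap between the groups. Bin 16, which ends at the tip of the long arm, held 807 and 850 peaks with vector and 949 and 760 with PAX3-FOXO1. The PAX3-FOXO1 libraries there lay on either side of the vector libraries. Bin 16 was the only bin of the chromosome with a ratio above 1.

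The ratios varied less along chromosome 7 than along most autosomes. Their SD over bins on the log2 scale was 0.11, against a median of 0.16 and a range of 0.07 to 0.35 over the other autosomes, and 3 autosomes had a smaller SD. The ratio lay between 0.782 and 0.930 in every bin but 12 and 16.

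Lost regions outnumbered gained ones in 16 of 16 bins, whereas 47.6% of the 271 other autosomal bins with at least 100 regions had more lost than gained. The share lost was highest in bin 5, with 156 of 1075 regions or 14.5% (12.5% to 16.7%, Wilson). Bin 10 followed with 161 of 1128 or 14.3% (12.4% to 16.4%). It was lowest in bin 16, with 86 of 1330 or 6.47% (5.27% to 7.92%), and next lowest in bin 15 with 7.47% (6.04% to 9.20%). Bins 15 and 16 were the only bins below the median of 8.01% of the other autosomal bins.

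Gained regions were few but unevenly placed. The share gained ran from 2.30% in bin 11 (24 of 1044) to 9.03% in bin 8 (75 of 831), and 13 of 16 bins lay below the median of 8.04% of the other autosomal bins. Bins 6, 8 and 12 reached or passed 8.21%. In these bins losses were above the other autosomes too, at 13.4% in bin 6, 13.1% in bin 8 and 9.91% in bin 12.

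**Figure D3:**
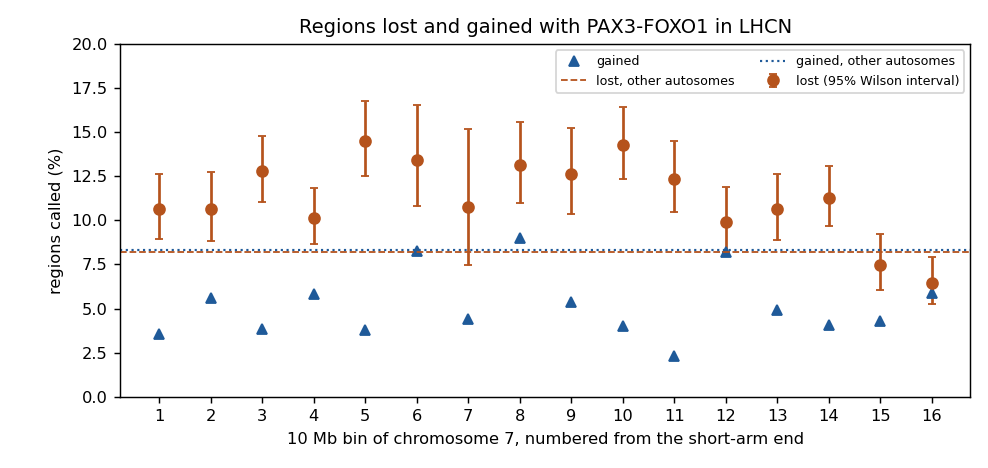
Percent of regions lost (orange points with 95% Wilson intervals) and gained (blue triangles) with PAX3-FOXO1 in each 10 Mb bin of chromosome 7 in LHCN (horizontal axis, bins 1 to 16 from the short-arm end); the dashed and dotted lines give the share lost (8.22%) and gained (8.30%) on the other autosomes. The share lost lies above the share gained in all 16 bins, falls to 7.47% and 6.47% in bins 15 and 16, and the share gained peaks at 9.03% in bin 8.

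The spread of the share lost over bins was 2.28 percentage points (SD weighted by regions), where counting error alone would give 0.965. The ratio of these values was 2.36. Over the other autosomes it ran from 1.08 to 3.56 with a median of 2.101, and their SDs from 1.10 to 3.55 points with a median of 2.06. Relative to its mean, the share lost on chromosome 7 varied by 0.204, against a median of 0.236 elsewhere. By this measure the losses varied more than counting error alone gives, and the spread lay within the range of the other autosomes. The share lost also differs with peak strength, as given below, and the mix of strengths was not held equal between bins.

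Each side of the centromere carried the deficit. The longest stretch without a region, 3.17 Mb from chr7:57886574-61055582, was used to divide the arms. On the short-arm side 742 of 6250 regions were lost, 11.9% (11.1% to 12.7%), and 4.86% were gained. On the long-arm side 1040 of 9724 were lost, 10.7% (10.1% to 11.3%), and 5.18% were gained.

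At finer scale the losses were spread over many places. Among 1 Mb windows with at least 20 regions, 112 of 139 on chromosome 7 (80.6%) had more lost than gained regions and 24 had more gained, whereas 51.2% of the 2314 windows on other autosomes had more lost. A lost region was found in 143 of the 156 windows that held any region. It took 43 windows to reach 50% of the losses, and no window held more than 1.80% of them.

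The windows with the most losses were chr7:130000001-131000000, with 32 lost and 2 gained of 174 regions, chr7:77000001-78000000, with 31 lost and 5 gained of 132, and chr7:90000001-91000000, with 31 lost and 1 gained of 142. The windows with the most gains included an adjacent pair. Windows at chr7:70000001-71000000 and chr7:71000001-72000000 had 20 gained of 42 regions and 19 gained of 39, with 0 lost in either, and chr7:117000001-118000000 had 21 gained and 9 lost of 127. The first pair accounts for 39 of the 75 gained regions of bin 8.

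Losses on chromosome 7 were more frequent at each level of peak strength. Regions present in both vector libraries were divided into 4 classes by their mean percentile of −log10 q within the lists. From the weakest class to the strongest, 45.3%, 27.2%, 7.13% and 0.346% were lost on chromosome 7, against 39.4%, 20.97%, 4.23% and 0.0970% on the other autosomes. Of regions present in both PAX3-FOXO1 libraries, 27.7%, 13.3%, 4.54% and 0.992% were gained on chromosome 7, against 39.6%, 20.2%, 7.88% and 1.73% elsewhere. Most lost regions were thus weak peaks: the median percentile of lost regions was 25.1 on chromosome 7 and 26.1 elsewhere, and that of gained regions 26.0 and 30.1.

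The strongest called regions show the range of the exceptions. The lost region at chr7:47644184-47644909 had a fold over background (the authors' value, used within its list only) of 28.3 and 26.6 in the vector libraries, and that at chr7:94053054-94053597 had 27.4 and 25.1. Lost regions at chr7:38065406-38065756, chr7:107992124-107992495 and chr7:156444167-156444712 had 23.5 to 29.8. The gained region at chr7:114997044-114997710 had 31.3 and 46.0 in the PAX3-FOXO1 libraries and that at chr7:89516205-89517700 had 38.7 and 40.03. Gained regions at chr7:150008699-150009190, chr7:95536042-95537081 and chr7:118012340-118012986 had 27.4 to 36.9. None of these 10 regions had even a weak peak in the full deposited lists of the other group. Coordinates are hg19, and no gene annotation of that build was used, so none is assigned to a gene.

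Sites that stayed accessible were weaker as well. On chromosome 7, 7016 regions had a peak in all 4 LHCN libraries, and 102152 did on the other autosomes. The mean within-list percentile of the chromosome 7 regions minus that of the others was 1.94 and 1.42 points with vector (1.68 ± 0.37, SD, n = 2) and −1.65 and −2.51 with PAX3-FOXO1 (−2.08 ± 0.61, SD, n = 2). They ranked above the other autosomes in both vector libraries and below them in both PAX3-FOXO1 libraries. The median fold of these regions relative to that on other autosomes was 1.11 and 1.09 with vector (1.10 ± 0.014) and 0.977 and 0.941 with PAX3-FOXO1 (0.959 ± 0.025). Calling needs a peak in all 4 libraries here, so regions that dropped out are not counted.

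Other autosomes moved as far. The shift of the mean percentile over its own shared regions was −4.18 points for chromosome 7, while it was −5.83 for chromosome 19, −5.05 for chromosome 22, −3.81 for chromosome 21 and −3.46 for chromosome 17. Chromosome 7 ranked 3 from the lowest.

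Along the chromosome the shift in strength followed the bins unevenly. The groups did not overlap, with PAX3-FOXO1 lower, in 13 of 16 bins, where 39.6% of all autosomal bins were lower in this way and 44.4% were higher. The largest shift was −8.97 points in bin 7 (chr7:60000001-70000000, 115 regions), where the vector libraries stood at 9.11 and 10.1 and the PAX3-FOXO1 libraries at 1.41 and −0.133. Bins 2, 15 and 16 overlapped, and bin 16 had a shift of 0.170. The median over the bins was −3.63, and all 16 lay below the median of 0.483 of the other autosomal bins.

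**Figure D4:**
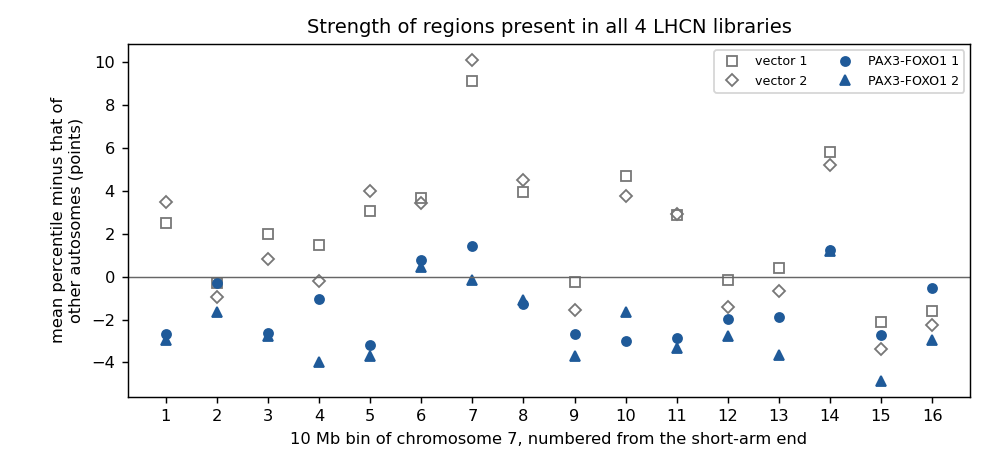
Mean within-list percentile of regions with a peak in all 4 LHCN libraries, as the difference from the other autosomes in percentage points (vertical axis), in each 10 Mb bin of chromosome 7 (horizontal axis, bins 1 to 16 from the short-arm end) for vector (open grey) and PAX3-FOXO1 (filled blue) libraries. The vector libraries lie above the PAX3-FOXO1 libraries in 13 bins, most in bin 7, and the groups overlap in bins 2, 15 and 16.

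The SD of these shifts over the bins was 2.59 points, close to the median of 2.80 within the other autosomes. Bins 15 and 16, at the end of the long arm, had the lowest shares lost and also overlapped in strength. Bin 2 had a share lost of 10.6% while its shared regions shifted by −0.348 points.

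The plain median over all chromosome 7 peaks in a list went the other way. In the deposited lists the median fold of chromosome 7 peaks was 0.857 and 0.886 of that of the other autosomes with vector and 0.933 and 0.971 with PAX3-FOXO1. The −log10 q ratios were 0.781 and 0.823 with vector and 0.888 and 0.955 with PAX3-FOXO1. By both measures chromosome 7 peaks were weaker than the rest in all 4 lists, with lower ratios in the vector lists. In both vector lists its fold ratio was the lowest of the 22 autosomes, while chromosomes 17, 19, 21 and 22 had 1 to 1.18. With PAX3-FOXO1 it was lowest in replicate 1 and level with chromosomes 4, 13, 18 and 21 in replicate 2. In lists of equal length the fold ratios were 0.917 and 0.917 against 0.935 and 0.971, and with the 50000 strongest peaks of each list the difference turned to −0.0430. In the 10 RH30 lists the deposited fold ratio ran from 0.955 to 1.07, above the vector libraries in each.

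Regions lost with PAX3-FOXO1 in LHCN seldom had a peak in RH30. Over the 10 RH30 libraries, 2.69% to 5.16% of the lost regions on chromosome 7 had a peak (median 3.23%), against 3.51% to 7.95% on the other autosomes (median 4.75%). Of gained regions, 13.7% to 27.8% had one (median 19.99%), against 18.2% to 30.6% (median 25.03%). For regions present in all 4 LHCN libraries the ranges were 29.6% to 46.5% and 36.3% to 50.3%. On chromosome 7 as elsewhere, gained regions had a peak in RH30 more often than lost ones and less often than shared ones. Lost and gained regions were mostly weak peaks in LHCN, and peak strength was not held equal between these classes.

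RH30 had fewer chromosome 7 peaks than LHCN, a trait shared with other autosomes, and its bins differed widely. With all lists cut to 93488 peaks, the DMSO mean divided by the vector mean had a median of 0.721 over the 16 bins, against 0.905 over the other autosomal bins. Bin 2 was lowest at 0.459, with 196 and 133 peaks against 359 and 357. Bin 7 was highest at 1.42, with 162 and 134 against 102 and 107. The DMSO mean lay below the vector mean in 12 bins and above it in bins 1, 6, 7 and 9. In bin 6 the DMSO libraries, at 236 and 193, lay on either side of the vector libraries, at 196 and 195. In the libraries labelled shCtrl only bin 1 had a ratio to vector above 1, at 1.66. Bins 6, 7 and 9 had 0.706, 0.971 and 0.655 there. The spread of this ratio over bins was not set against that on other autosomes. By whole chromosome, the vector share divided by the DMSO share was 1.32 for chromosome 7, rank 5 of 22. It was 1.62 for chromosome 8, 1.44 for chromosome 4, 1.42 for chromosome 3 and 1.33 for chromosome 18. These are 2 cell lines, so line, tumour genome and culture cannot be told apart.

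For the RH30 contrasts chromosome 7 was not chosen by the outcome, and tests are given. With QC6352 it resembled the other autosomes in its calls. Of 8165 regions, 609 or 7.46% were lost, where 7.15% of all autosomal regions were, and 447 or 5.47% were gained, where 6.56% were. Chromosome 7 held 4.69% and 4.75% of peaks with QC6352 and 5.34% and 4.70% with DMSO, with all RH30 lists cut to 93488 peaks. At this length the groups overlapped, and the difference was −0.305 points (exact permutation test, two-sided, p = 0.667, adjusted p = 0.667 over 3 comparisons, where 0.333 is the smallest p that 2 against 2 libraries allow). Without DMSO replicate 1, the higher of the DMSO libraries, the difference was 0.0164.

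This difference moved with list length. With the compound lists cut to 105136 peaks, as for the calls, the means were 4.55% ± 0.12 with QC6352 and 5.08% ± 0.51 with DMSO (SD, n = 2 each), a difference of −0.530 points without overlap. At that length 63.6% of the 22 autosomes were lower without overlap and 31.8% were higher. In the deposited lists chromosome 7 held 4.55% and 4.67% with QC6352 and 5.44% and 5.21% with DMSO, a difference of −0.714 points (exact permutation test, two-sided, p = 0.333). With the 50000 strongest peaks it was 0.259 points, in the other direction.

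Within chromosome 7, a limma fit to log2 peak shares over all autosomal bins called 2 of 16 bins lower with QC6352 and 0 higher, where 15.2% of all bins were called lower and 3.81% higher. Bin 16 fell by 0.66 on the log2 scale (SE 0.13, limma, adjusted p = 0.0127), from 326 and 317 peaks with DMSO to 218 and 190 with QC6352 in lists of 93488. Bin 6 (chr7:50000001-60000000) fell by 0.63 (SE 0.16, limma, adjusted p = 0.0229), from 236 and 193 to 119 and 161. The calls rest on the spread of all 10 RH30 libraries: 0 bins were called with the 4 compound libraries alone, 0 without DMSO replicate 1, where 2 had an unadjusted p under 0.05, and 1 without QC6352 replicate 1. With lists as deposited 8 bins were called, 7 of them lower, and with the 50000 strongest peaks 0 were, with 4 at an unadjusted p under 0.05.

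The strongest region lost with QC6352 was chr7:44029576-44030213, with a fold of 28.6 and 29.4 in the DMSO libraries and no peak in the deposited QC6352 lists. The strongest gained were chr7:87203776-87204269, with 13.8 and 17.1, and chr7:94443083-94443539, with 13.8 and 15.0. The latter lies in bin 10, and bin 9, with 54 of 662 regions or 8.16% gained, holds the former.

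In the hairpin libraries chromosome 7 had its end bins lower and most of its middle higher than in the libraries labelled shCtrl. It was about as uneven as other autosomes. The SD of the log2 share ratio over its bins was 0.61 for the libraries labelled shKDM4B-813. The other autosomes had a median of 0.64 and a range of 0.30 to 0.88. For those labelled shKDM4B-814 it was 0.51, against a median of 0.48 and a range of 0.28 to 0.76. Its share was 4.27% and 4.00% in the libraries labelled shCtrl, 5.62% and 4.93% in those labelled shKDM4B-813, and 5.32% and 5.07% in those labelled shKDM4B-814. The libraries labelled shCtrl lay below all others. The differences of 1.13 and 1.06 points each had an exact two-sided permutation p of 0.333, the smallest that 2 against 2 allow, and an adjusted p of 0.5. These comparisons share their control libraries. Gaps between groups were common, since in both comparisons chromosomes 14 and 15 were the only autosomes whose shares overlapped. The share of chromosome 7 relative to the libraries labelled shCtrl was 1.27 in those labelled shKDM4B-813, rank 8 from the highest of 22 autosomes. In those labelled shKDM4B-814 it was 1.26, rank 9. The other autosomes ran from 0.463 to 1.82 (median 1.14) and from 0.519 to 1.71 (median 1.16).

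Against the libraries labelled shCtrl, those labelled shKDM4B-813 had 1209 gained of 8503 regions (14.2%, where 10.8% of all autosomal regions were) and 375 lost (4.41%, where 7.21% were). Those labelled shKDM4B-814 had 680 gained (7.997%, where 5.69% were) and 255 lost (3.00%, where 5.92% were). For the latter the balance depended on list length, since their lists are the shortest: as deposited, 4.10% were gained and 7.36% lost. The shares over all autosomal regions are not given for the deposited lists.

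The limma fit called 11 of 16 bins higher and 2 lower in the libraries labelled shKDM4B-813, where 61.6% of all autosomal bins were called higher and 18.7% lower. Bin 2 was higher by 1.51 on the log2 scale (SE 0.21, limma, adjusted p = 3.54e-05), with 324 and 272 peaks against 116 and 95. Bins 9 and 12 were higher by 1.43 (SE 0.18) and 1.38 (SE 0.17). Bin 1 (chr7:1-10000000) fell by 0.67 (SE 0.13, limma, adjusted p = 0.000369), with 421 and 460 peaks against 742 and 681, and bin 16 fell by 0.39 (SE 0.13). Bins 5, 8 and 11 were not called. The median over the chromosome 7 bins was 0.51 and that over all autosomal bins 0.56. These are shares of a fixed total, so not all bins can rise. Chromosomes 17, 19 and 22 had lower shares, with ratios of 0.600, 0.463 and 0.501.

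In the libraries labelled shKDM4B-814, 11 bins were called higher and 1 lower, where 59.9% and 15.9% of all bins were. Bin 9 was higher by 1.43 and bin 1 fell by 0.40 (SE 0.13, limma, adjusted p = 0.0143). Without replicate 1 of that group 6 bins were called. Set directly against each other, the libraries labelled shKDM4B-813 and shKDM4B-814 differed in 0 of 16 bins by limma at an adjusted p under 0.05, and in 0 at an unadjusted p under 0.05, with differences from −0.28 to 0.26 on the log2 scale. That does not show that they were alike.

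**Figure D5:**
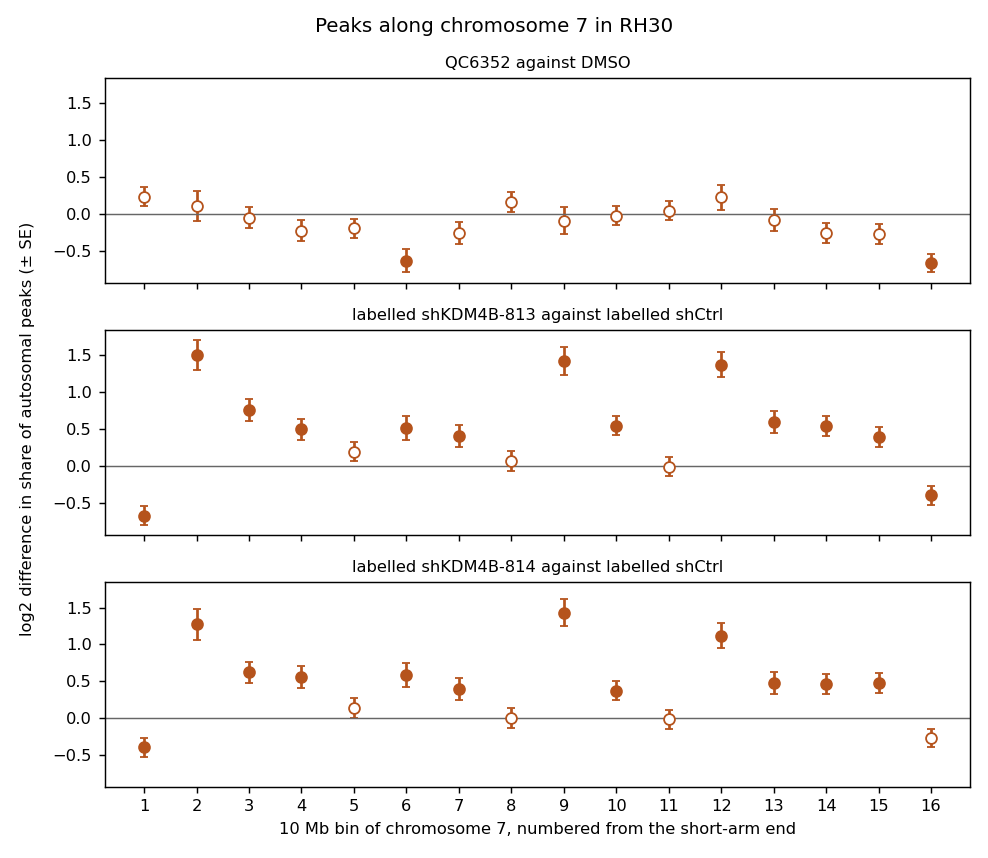
Difference in log2 share of autosomal peaks (vertical axis, ± SE from limma) in each 10 Mb bin of chromosome 7 (horizontal axis, bins 1 to 16 from the short-arm end) for the 3 RH30 comparisons, with filled points for bins past an adjusted p of 0.05. With QC6352 bins 6 and 16 are filled and lie below 0, while in the libraries labelled shKDM4B-813 and shKDM4B-814 bins 2, 9 and 12 lie highest, at 1.51, 1.43 and 1.38 in the former, and bin 1 lies below 0.

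Grouped by the peak names, the hairpin results took another form. The libraries named for sh813 had 3.00% gained and 7.997% lost against those named for the control, where 5.92% and 5.69% of all autosomal regions were, and their share was lower by 1.06 points, with 11 bins called lower and 1 higher. Of all autosomal bins 59.9% were called lower and 15.9% higher in that grouping. The libraries named for sh814 had 5.54% gained and 2.89% lost, where 4.74% and 2.59% were. Their share differed by 0.0771 points (exact permutation test, two-sided, p = 1), and 0 of 16 bins were called by limma, with 0 at an unadjusted p under 0.05. In that grouping the low share of chromosome 7 belongs to the libraries named for sh813.

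The strongest regions gained in the libraries labelled shKDM4B-813 were chr7:80128626-80128949, with a fold of 27.2 and 20.9, and chr7:52607743-52608119, with 26.7 and 22.95. Neither had a peak in the lists labelled shCtrl. The 5 strongest regions lost there had a fold of 8.54 to 11.7 in the lists labelled shCtrl. Fold is not compared between lists. By within-list percentile, the lower of the 2 libraries, these lost regions stood at 70.2 to 75.7. The 5 strongest gained regions stood at 89.7 to 91.8. Of the 5 lost regions, 4 kept a weak peak in at least 1 of the other group's deposited lists. In the libraries labelled shKDM4B-814 the strongest gained were chr7:10296975-10297374, with 12.7 and 11.6, and chr7:50894391-50894888, with 14.3 and 11.2.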

How the data were processed

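ATAC-seq was measured in 14 libraries of 2 human cell lines, in 7 groups of 2 taken from the sample titles. Per the labels' protocols each library came from 100000 cells treated with Tn5 for 30 min and amplified over 12 PCR cycles. The submitters' processing notes name MACS2 2.1.1, SAMtools 1.3.1, Picard 1.65, BWA 0.7.12-r1039 and the build hg19. How they were set, how reads were filtered and whether Tn5 cut sites were shifted is not given in the sources used here. Peaks were deposited in narrowPeak format, with 1 list for each library. The authors deposited for each peak a fold over background, which is a ratio, a −log10 p and −log10 q, a score and a summit offset. The score and −log10 p were not used. Fold and −log10 q were used only within a list. Read depth is unknown, so no interval for sampling of reads could be given, and Wilson intervals cover counting over regions only, which are not independent.

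Lists were cut to the shortest of the LHCN experiment, the compound experiment or the hairpin experiment, and to the shortest of all RH30 lists for shares and bins, keeping the peaks highest by −log10 q, then fold, then position. Trimmed peaks were merged into regions, and a library was present with an overlap of 1 bp or more. RH30 shares were tested by exact permutation with Benjamini-Hochberg adjustment over 3 comparisons. RH30 bins of 10 Mb with a mean of at least 20 peaks were tested with limma 3.58.1 in R 4.3.3, on log2(peaks + 1) minus log2 of autosomal peaks, over all 10 RH30 libraries, with Benjamini-Hochberg adjustment over all autosomal bins at 0.05. Other steps used Python 3.11.15, NumPy 2.4.6, pandas 2.3.3, SciPy 1.17.1 and matplotlib 3.10.9. The calling rule and the fit were tested on simulated data. For the calling rule every unchanged simulated region had a peak in every list. That test therefore gives no rate of false calls for weak peaks.

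The chromosome, the lists and the bins were chosen with earlier results of these data known. Named regions are from the 5 per comparison and direction with the highest lower-of-2 percentile, and named windows are the 10 Mb bins with the highest and lowest share lost and the 3 windows of 1 Mb with the most lost or gained regions. Other bins were named after their values were seen. The arms, the 1 Mb comparison, the grouping by peak names and the fit with the compound libraries alone were chosen after seeing the data. Gene lists, cell type markers and sequences were not analysed here, since no hg19 annotation was at hand. Alternatives covered list length, overlap, summit windows, bin size, pseudocount, the filter on bins, single libraries left out and a replicate block. Same-numbered libraries are not stated to share a culture or day. Their deviations over bins correlated at 0.0139 in LHCN, −0.490 for QC6352 and DMSO, and 0.236 and 0.175 for the hairpins, so numbers were not treated as pairs.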

Additional observations from a re-analysis of the deposited data

How the results depend on the processing

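In LHCN the difference in chromosome 7 share was negative under every setting run, at −1.05 points with lists as deposited, −0.754 with peaks of −log10 q of 10 or more, and −0.984 to −0.813 with single libraries left out. The share lost was 12.6% at −log10 q of 10, 16.0% with the 50000 strongest peaks, 12.7% when a peak had to cover 50% of the region, and 14.03% to 18.7% with single libraries left out, where the rule needs fewer libraries. The share gained was 4.42% as deposited and then 5.56%, 8.70%, 5.48% and 6.65% to 12.2% in the same order. For other list lengths and library rules, here and below, the share called over all autosomal regions is not given. These shares therefore do not show whether chromosome 7 moved more or less than the background. The spread over bins was 3.41 points with the 50000 strongest peaks. The difference in median fold ratio was 0.0368 in trimmed lists, 0.0810 as deposited, 0.000473 at −log10 q of 10, −0.0430 with the 50000 strongest, and 0.0188 to 0.0548 with single libraries left out. That in percentile of shared regions was −5.71 with the 50000 strongest.

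For QC6352 the share difference was −0.714 points as deposited, turned positive at −log10 q of 10 (0.225) and with the 50000 strongest peaks (0.259), and ran from −0.627 to 0.0164 with single libraries left out. The share lost was 5.20% as deposited, 8.67% at −log10 q of 10, 8.20% with the 50000 strongest and 10.3% to 22.1% with single libraries left out. The share gained was 8.80% with the 50000 strongest and 7.05% to 16.0% with single libraries left out. Called bins numbered 8 as deposited, 0 with the 50000 strongest, 0 with the compound libraries alone and 0 to 2 with single libraries left out.

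For the libraries labelled shKDM4B-813 the share lost was 5.42% as deposited, 1.49% at −log10 q of 10 and 5.39% to 12.5% with single libraries left out. The share gained was 13.1%, 22.7% and 16.9% to 26.5%. Grouped by the peak names, other libraries take that place: those named for sh813 are labelled shCtrl. Against the libraries named for the control they had 7.997% lost, 3.00% gained and a share difference of −1.06. For those labelled shKDM4B-814 the share lost was 7.36% as deposited, 1.63% at −log10 q of 10 and 4.09% to 10.5% with single libraries left out. The share gained was 4.10% as deposited, 9.26% with the 50000 strongest and 10.8% to 20.2% with single libraries left out. By the peak names these libraries are the control. The libraries named for sh814, which are labelled shKDM4B-813, had 5.54% gained against them. With single libraries left out, called bins numbered 10 to 12 for the libraries labelled shKDM4B-813 and 6 to 12 for those labelled shKDM4B-814. They numbered 0 for the libraries named for sh814 against those named for the control. The cause of these moves was not tested, except that list length, the number of libraries in the rule and the grouping differ by construction.

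With a replicate block the numbers of called chromosome 7 bins stayed at 2, 13 and 12, and the difference in share stayed at −0.899 in LHCN. Over all autosomal bins the block moved the higher and lower calls from 11 and 44 to 14 and 42 for QC6352, from 178 and 54 to 177 and 54 for the libraries labelled shKDM4B-813, and from 173 and 46 to 174 and 49 for those labelled shKDM4B-814. Read depth is unknown, 2 libraries per group limit every test, and an absent peak means only that none passed the caller's limit or the trimmed length. Copy number itself was not measured here.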
